A study of Homo sapiens with 9 samples.

Results

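ARID1B bound 2326 intronic regions of HepG2 cells at which neither ARID1A nor ARID2 had a called peak. HepG2 is an established human liver cancer cell line. The 2326 regions were selected on measured binding: each was an ARID1B ChIP-seq peak that the authors classed as intronic and that shared no base with any peak of the ARID1A or ARID2 lists. They made up most of the 2963 intronic ARID1B peaks, out of 8728 ARID1B peaks and 55293 peaks in the 4 deposited lists. The study immunoprecipitated chromatin from unmodified HepG2 cells with antibodies against ARID1A, ARID1B, ARID2 and SNF5, with 2 replicate libraries for each antibody, and sequenced 1 input library. Peaks were called on merged replicates, so each subunit had 1 list and no value carried a replicate error. All intervals and p-values given here cover counting error over peaks only, and the depth of the libraries is unknown.

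SWI/SNF complexes use the energy of ATP to slide or evict nucleosomes. ARID1A and ARID1B are alternative subunits of the BAF form of the complex, ARID2 belongs to the PBAF form, and both forms share the core subunit SNF5, encoded by SMARCB1. Introns of liver genes often hold enhancers, which are bound by hepatocyte factors such as FOXA, HNF4, C/EBP and HNF1, and by the more widely expressed AP-1 and TEAD factors.

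As examples rich in motifs, 1 member was printed for each of 5 motifs, namely the member with the most matches in the 200 bp around its midpoint among members that overlapped an SNF5 peak. These windows are extremes and not typical members. Of the 2326 members, 1734 held no FOXA, HNF4, HNF1 or C/EBP match, and 1305 had no SNF5 overlap. Each line gives the plus strand of GRCh37 (hg19), with matches to that motif on either strand in capitals. The motifs searched were TGTTTAC or TATTTAC for FOXA, CAAAGTCC or CAAAGGTC for HNF4, GGAATG for TEAD, TTGCNNAA for C/EBP and GTTAATNA for HNF1, where N is any base. A match describes the letters and does not show that a factor was bound.
FOXA in RALGAPA1, chr14:36276855-36277054: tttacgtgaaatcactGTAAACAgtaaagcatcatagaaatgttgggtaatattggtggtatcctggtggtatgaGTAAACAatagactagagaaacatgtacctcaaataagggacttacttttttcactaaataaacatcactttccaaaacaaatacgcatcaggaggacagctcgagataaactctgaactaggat
HNF4 in LRRFIP1, chr2:238650906-238651105: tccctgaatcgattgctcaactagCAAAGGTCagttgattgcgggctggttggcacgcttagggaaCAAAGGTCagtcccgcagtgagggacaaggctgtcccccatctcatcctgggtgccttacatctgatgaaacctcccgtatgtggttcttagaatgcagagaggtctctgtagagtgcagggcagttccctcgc
TEAD in FAM210A, chr18:13675011-13675210: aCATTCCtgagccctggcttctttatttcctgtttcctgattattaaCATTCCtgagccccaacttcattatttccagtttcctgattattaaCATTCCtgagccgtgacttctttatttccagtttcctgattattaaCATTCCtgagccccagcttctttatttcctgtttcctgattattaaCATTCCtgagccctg
C/EBP in CFAP99, chr4:2431906-2432105: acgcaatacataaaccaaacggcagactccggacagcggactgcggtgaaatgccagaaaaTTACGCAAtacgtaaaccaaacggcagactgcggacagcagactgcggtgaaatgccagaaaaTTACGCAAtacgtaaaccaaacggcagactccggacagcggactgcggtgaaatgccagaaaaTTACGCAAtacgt
HNF1 in B3GALT1, chr2:168671724-168671923: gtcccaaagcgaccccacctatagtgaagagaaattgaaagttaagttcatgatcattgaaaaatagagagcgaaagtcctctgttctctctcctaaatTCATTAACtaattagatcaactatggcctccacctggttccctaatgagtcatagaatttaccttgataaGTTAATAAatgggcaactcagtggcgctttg

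The RALGAPA1 window, in intron 1 of a gene for a RalGAP subunit, held 2 FOXA matches starting 59 bp apart, and was 1 of 7 members under SNF5 with that many, of 13 members in all. The LRRFIP1 window held 2 HNF4 matches 42 bp apart, the one member to do so. The FAM210A and CFAP99 windows were built from tandem repeats. In FAM210A the TEAD letters recurred every 46 bp for 5 matches, beside 4 HNF1 matches in the same repeat, the most of any eligible member, and in CFAP99 the C/EBP letters recurred every 63 bp for 3 matches. Because FAM210A was already shown, the next member by HNF1 matches was printed for HNF1. The SNF5 peaks over these 5 members, which the choice required, had scores from 19 in B3GALT1, a glycosyltransferase gene, to 27 in FAM210A.

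The members were short regions inside long genes, as were other intron peaks of a single ARID. Their median width was 142 bp, with quartiles of 73 and 215 bp and a range from 52 to 1478 bp, and 402 of them were exactly 52 bp wide, the smallest width in the list. Intronic ARID1B peaks that did overlap ARID1A or ARID2 (the 637 shared intron peaks) had a median width of 261 bp. Peaks of a single ARID in the like classes were as short as members, with medians of 132 bp for distal peaks of ARID1B alone, 147 bp for ARID1A intron peaks and 150 bp for ARID2 intron peaks. The deposited distance to the nearest transcription start site had a median of 7672 bp, against 5865 bp for shared intron peaks, 3853 bp for intron peaks of ARID1A alone and 2662 bp for those of ARID2 alone. In the Gencode v44 annotation, 2301 members had their midpoint in a gene and 38 in an exon, so the deposited intron class held for nearly all of them. A count of introns along the main transcript could be made for 2021 members. Of these, 751 lay in intron 1 (37.2%, 95% Wilson interval 35.1 to 39.3), against 42.9% of shared intron peaks, 51.1% of ARID1A intron peaks alone and 62.8% of ARID2 intron peaks alone. The genes that held members were long, with a median of 103130 bp over 1605 distinct genes, against 27194 bp over all 20176 protein-coding genes. Members were intronic by rule, and the longest gene over each midpoint was taken, preferring protein-coding genes. Both choices favour long genes, so this contrast is not a finding about the members. The 1605 genes also included noncoding ones. Counted per peak, the median host gene was 117523 bp long for members, 98994 bp for shared intron peaks, 78920 bp for ARID1A intron peaks alone and 98206 bp for ARID2 intron peaks alone.

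Member windows held less G and C than shared intron peaks or intron peaks of ARID1A alone, as values without a test. Median GC content of the 200 bp windows was 45.5% in members, 49.5% in shared intron peaks, 51.5% in intron peaks of ARID1A alone and 46.0% in intron peaks of ARID2 alone. The median ratio of observed to expected CpG was 0.214 in members and 0.261 in shared intron peaks.

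The distance of members from other ARID peaks varied widely. The gap from a member to the nearest ARID1A or ARID2 peak had a median of 16658 bp. It was over 20000 bp for 1092 members and at most 1000 bp for 502, and the nearest other peak was ARID1A for 1104 members and ARID2 for 1220. At the edge of the choice, 2 members touched another ARID peak with a gap of 0 bp, at chr2:54804130-54804225 in SPTBN1 and chr3:187840647-187840920 near RP11-430L16.1. Starts were read as counted from 0, and these 2 would share 1 base if starts were counted from 1. Just outside it, a peak at chr2:54799571-54799750, also in SPTBN1, was left out for an overlap of 2 bp, and 18 shared intron peaks overlapped by at most 10 bp. The median overlap of a shared intron peak with its best partner was 136 bp.

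SNF5 was called over fewer than 50% of the members. With an overlap of 1 bp or more as the criterion, SNF5 overlapped 1021 of 2326 members (43.9%, 95% Wilson interval 41.9 to 45.9), against a background of 62.9% of all ARID1B peaks. Shared intron peaks overlapped SNF5 in 90.7% of cases (578 of 637). The difference of -46.8 percentage points (95% interval -49.7 to -43.6) was past the threshold of a two-sided Fisher exact test (Benjamini-Hochberg adjusted p = 4.79e-111 over 4 comparisons). Its size depended on the overlap rule. It was -8.92 points (3.96% against 12.9%) when the overlap had to cover 50% of both peaks, -28.5 points with midpoints at most 500 bp apart and -35.8 points within strata of peak width, each past the threshold. Few members could meet the 50% rule, since their median width was 142 bp and that of the SNF5 peaks over them 972 bp. With the 1 bp rule the share was lower in members on each of the 21 chromosomes with at least 10 members and a shared intron peak.

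Against the other peaks of a single ARID, differences were of a few points with the 1 bp rule and changed with other rules. Distal peaks of ARID1B alone overlapped SNF5 in 39.1% of 1625 cases, 4.76 points below the members (adjusted p = 0.00576, Fisher exact test). Among peaks of at least 100 bp this difference was 3.69 points (adjusted p = 0.126, Fisher exact test). Intron peaks of ARID1A alone overlapped SNF5 in 47.9% of 1001 cases, 3.96 points above the members (adjusted p = 0.0490, Fisher exact test). That call was lost under 6 other settings, among them autosomes only and strata of peak width, and the direction turned under 2 more (an overlap of 50% of both peaks, and no other ARID within 1000 bp). Intron peaks of ARID2 alone did so in 44.0% of 1630 cases, and the difference from members was -0.154 points (95% interval -3.30 to 2.98, adjusted p = 0.948, Fisher exact test). When an SNF5 peak within 1000 bp was enough, members were 8.70 points below ARID1A intron peaks (adjusted p = 2.29e-06) and 10.9 points below ARID2 intron peaks (adjusted p = 2.1e-12, Fisher exact tests). Other rules put members above ARID2 intron peaks. The difference was 1.69 points with an overlap of 50% of both peaks (adjusted p = 0.00695, Fisher exact test). It was 4.51 points with midpoints at most 500 bp apart (adjusted p = 0.00766) and 4.08 points with no other ARID within 1000 bp (adjusted p = 0.0416, Fisher exact tests). The 2 comparisons with ARID1A and ARID2 turned direction within strata of the gap to the nearest peak of another ARID: members were then 4.39 points above ARID1A intron peaks (adjusted p = 0.0201) and 5.88 points above ARID2 intron peaks (adjusted p = 0.00101, stratified Mantel-Haenszel chi-square tests). This last comparison was chosen after the data were seen. Its gap ran to a different pair of ARID lists for members, ARID1A peaks and ARID2 peaks, so gaps were not fully alike.

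**Figure D1:**
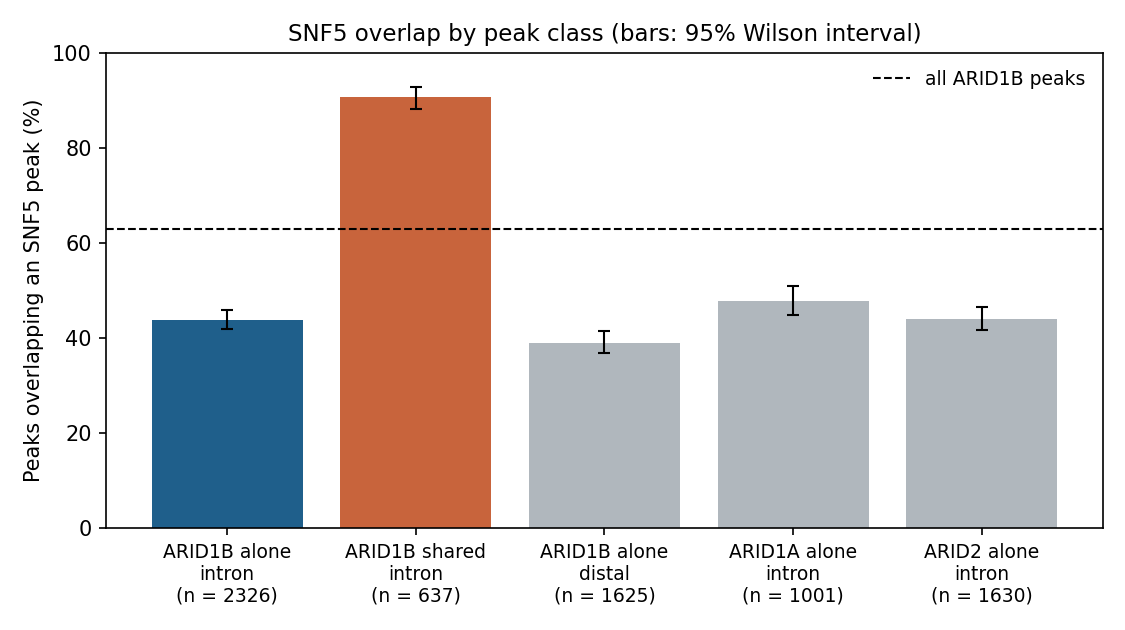
Share of peaks (y axis, %) that overlap an SNF5 peak in the 5 peak classes on the x axis, with 95% Wilson intervals, and a dashed line at the 62.9% of all ARID1B peaks. The bar of ARID1B intron peaks alone (43.9%) lies between the other single-ARID classes (39.1% to 47.9%), and the shared intron peaks stand at 90.7%.

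Wider members overlapped SNF5 more often. The share was 24.9% among the 402 members of 52 bp, 35.0% at 53 to 100 bp, 43.1% at 101 to 150 bp, 42.9% at 151 to 250 bp and 75.9% among the 386 members over 250 bp. A wider region meets another region more easily, and how far width itself set these shares was not tested. In each width class the shared intron peaks were higher, from 73.7% at 52 bp to 96.1% over 250 bp. Members near another ARID peak also overlapped SNF5 more often, with 83.9% of the 124 members at a gap of at most 100 bp, 68.5% at 101 to 1000 bp and 24.6% of the 419 members over 100000 bp away. Both patterns held together: among members over 20000 bp from another ARID peak, SNF5 overlapped 118 of 175 that were over 250 bp wide (67.4%) and 231 of 917 that were narrower (25.2%).

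**Figure D2:**
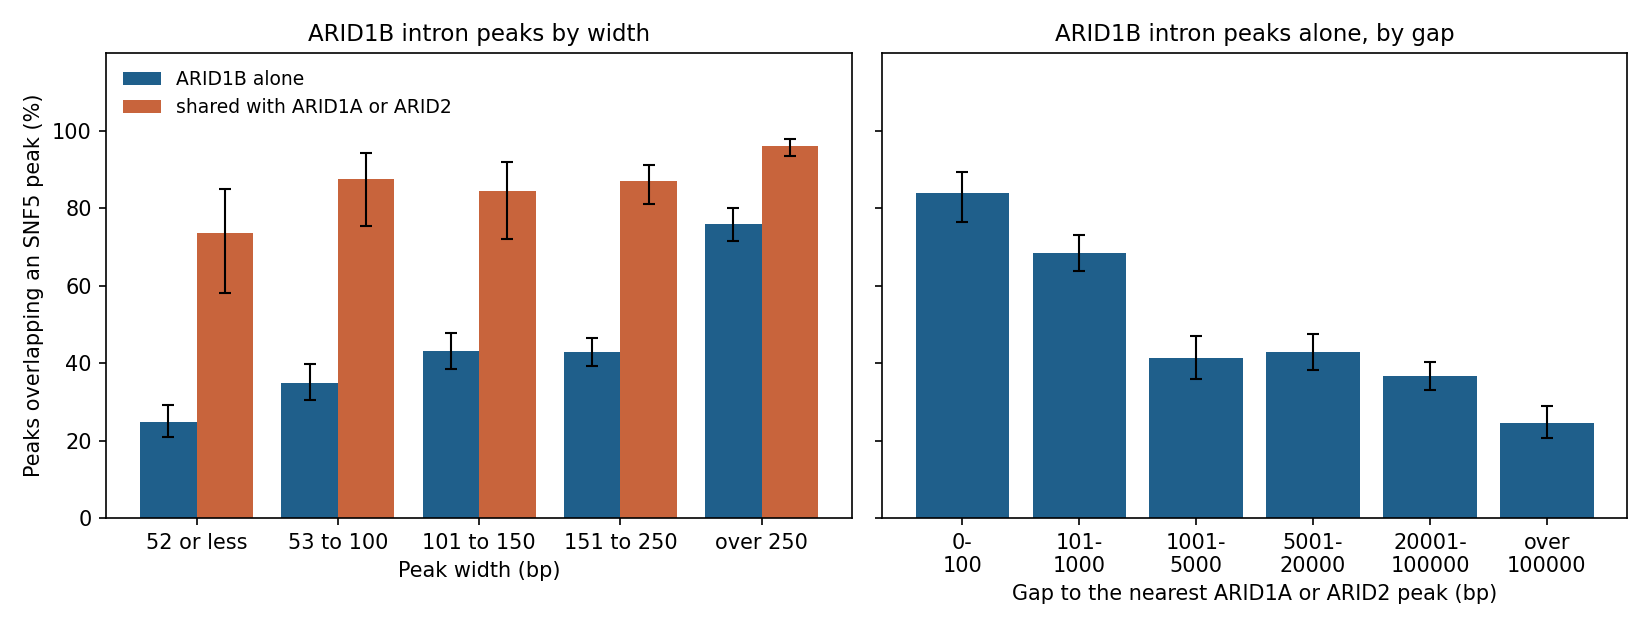
Share of ARID1B intron peaks (y axis, %) overlapping SNF5, by peak width in bp for peaks alone and shared (left) and, for peaks alone, by the gap in bp to the nearest ARID1A or ARID2 peak (right), with 95% Wilson intervals. Peaks alone run from 24.9% at 52 bp to 75.9% over 250 bp, below the shared peaks in each class, and from 83.9% at a gap of at most 100 bp to 24.6% over 100000 bp.

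The SNF5 peaks under the members were wider and of higher score than the SNF5 list as a whole, as they were in the other single-ARID classes. The 1021 members fell in 953 SNF5 peaks of 20718, and 63 SNF5 peaks held at least 2 members. In 332 cases (32.5%) that SNF5 peak also overlapped an ARID1A or ARID2 peak elsewhere along its length, and in 689 cases (67.5%) it did not. The SNF5 peak caller score had a median of 22 over members, 26 over shared intron peaks and 19 in the whole SNF5 list. The median width of those SNF5 peaks was 972 bp over members and 1454 bp over shared intron peaks, against 535 bp in the whole SNF5 list. Wide SNF5 peaks meet other peaks more easily. Over distal peaks of ARID1B alone, ARID1A intron peaks alone and ARID2 intron peaks alone the median score was 22 in each. The median widths there were 966, 973 and 1098 bp. Of the 1305 members with no SNF5 overlap, 387 had an SNF5 peak within 1000 bp and 220 had none within 100000 bp.

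The 5 members under the highest-scoring SNF5 peaks lay in genes of muscle, transport, metabolism and liver. The first, in intron 1 of MYBPC1, a myosin-binding protein gene, was at chr12:102002633-102002846 under an SNF5 peak of score 62. The second was in the last intron of VTI1A, a vesicle SNARE gene, under a score of 51, and lay 44154 bp from another ARID peak. The others were in ABCG2, an efflux transporter gene (score 50), in HK2, a hexokinase gene (score 46), and in AFP (score 46), which encodes alpha-fetoprotein, the fetal plasma protein that liver cancers often make. The AFP member, at chr4:74298313-74298732, was 16 bp from another ARID peak, so it was a near miss of the shared class. The gap was 355 bp in ABCG2, 482 bp in MYBPC1 and 4670 bp in HK2.

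The 5 widest members were 1027 to 1478 bp wide, and 4 of them overlapped SNF5. They lay in SCN1A, a sodium channel gene (1478 bp), in CCNYL1 (1126 bp), in UGT2B15, a liver enzyme gene for glucuronidation of steroids (1060 bp), in PTPRK, a receptor phosphatase gene (1047 bp), and in the noncoding LINC01237 (1027 bp, no SNF5 overlap). The PTPRK member, at chr6:128383863-128384909, was 424289 bp from the nearest ARID1A or ARID2 peak. That gap was 54 bp in SCN1A, 195 bp in UGT2B15, 21649 bp in CCNYL1 and 75505 bp in LINC01237.

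Members were spread thinly over genes, with 1186 of the 1605 host genes holding 1 member and 27 holding at least 5. By the deposited nearest gene, the names with most members were those of repeated small RNAs. U6 was nearest for 38 members on 16 chromosomes, Y_RNA for 23, Metazoa_SRP for 17, 7SK for 12 and snoU13 for 11, and each name stands for many copies. Of these 101 members, 77 lay inside a protein-coding gene. NPIPL3, with 17 members on chromosome 16, and FAM35DP, with 6 within 8836 bp on chromosome 10, belong to duplicated sequence where reads of near-identical copies are hard to place, so their counts are uncertain. Without the 19 members of the NPIP family the SNF5 share was 44.0%. The other leading names were MAP4K4 and SPTBN1 with 7 each, and CMIP, MSI2 and SLMAP with 6 each.

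By the gene that holds them, members were most frequent in MSI2, an RNA-binding protein gene of 429 kb on chr17:55333212-55762050. Its 10 members, out of 15 ARID1B peaks in the gene, lay in introns 5 to 8 of 13, and 5 overlapped SNF5. Of these members 6 were over 20000 bp from an ARID1A or ARID2 peak. PLEKHM3 held 9 members, 7 of them with SNF5. WWOX, a gene of 1113 kb that spans a fragile site, held 8 members, all over 20000 bp from another ARID peak, and 6 overlapped SNF5. Its intron 8 held a run of 5 members within 4089 bp, from chr16:78515844 to chr16:78519932, at 184609 to 188595 bp from any ARID1A or ARID2 peak. SPTBN1, the gene for a beta-spectrin, gave the opposite picture. Its 8 members all lay in intron 2 and all within 9978 bp of another ARID peak, the gene also held 10 ARID1A and 10 ARID2 peaks, and 6 members overlapped SNF5. CMIP held 7 members, 2 of them with SNF5, while MAP4K4, a kinase gene, and PARD3, a cell polarity gene, held 7 members with 4 under SNF5 each, and the unnamed gene ENSG00000251314 held 7 with 6 under SNF5. Among hosts of 6 members, all 6 overlapped SNF5 in ZFHX3, a transcription factor gene, at a median gap of 154 bp, 5 did in SLMAP, 4 in FAM35DP, 3 in STARD13 and 1 in RNF32-DT. Such runs were uncommon, since 1718 of 1985 groups formed by joining members within 10000 bp held 1 member and 4 held at least 5.

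In each of the 11 gene lists used, whether of liver function or not, the share of genes nearest to a member was above that of all genes. It ran from 14.3% of the Hippo and SWI/SNF subunit lists to 35.4% of the actin list and 75% of the 4 nuclear factor I genes. A gene counts here as the deposited nearest gene, which was also the host gene for 1181 of 2326 members (50.8%). A listed gene need not hold the member in its own intron. Over all 20149 protein-coding symbols, 4.76% were the nearest gene of a member, against 29.2% of the hepatocyte transcription factor list. Any ARID1B peak was nearest to 3226 of the 20149 symbols and to 58.3% of that list. Across the lists this second share ran from 32% (insulin and IGF) to 75% (nuclear factor I), so each list was also high for ARID1B peaks of any kind. Deposited names were matched to newer symbols, so a renamed gene, such as PATJ under the name INADL, was missed among the 20149. Neither gene length nor expression in HepG2 cells was matched, and the lists were chosen with these data known. The paper reports that little ARID binding fell on transcripts that were not expressed. The hepatocyte transcription factor list had 7 of 24 genes with a member and 9 members in all, of which 4 overlapped SNF5. PROX1, a regulator of liver development, and RXRA, the shared partner of nuclear receptors, had 2 each. NR1H4, the bile acid receptor FXR, had 1 at a gap of 331 bp from another ARID peak, and ONECUT2 had 1 at 7692 bp. The plasma protein list had 8 of 49 genes with a member, and 7 of its 9 members overlapped SNF5. SERPINA3, a protease inhibitor gene, had 2, both under SNF5 peaks, although the gene that held them was an unnamed neighbour. F5, the gene for clotting factor V, had a member of 514 bp and APOH, for beta-2-glycoprotein, one of 501 bp.

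Genes of liver metabolism followed. The cholesterol and lipid list had 7 of 38 genes with a member and 10 members, 6 of them with SNF5. SCARB1, the HDL receptor, had 3, of which the one at chr12:125313668-125313819 lay under an SNF5 peak of score 40. ACACB, an acetyl-CoA carboxylase gene, had a member of 994 bp at chr12:109635698-109636691, also under an SNF5 peak of score 40 and 81680 bp from another ARID peak. PPARG had 2 and PPARGC1A, a coactivator of gluconeogenic and mitochondrial genes, had 1. The drug and bile acid list had 7 of 37 genes and 8 members, 5 of them with SNF5. TAT, the tyrosine aminotransferase gene, ABCC3, an efflux transporter, and POR, the electron donor of cytochromes P450, had 1 each, all under SNF5.

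Signalling and structural genes were nearest to members as well. In the insulin and IGF list 4 of 25 genes had 9 members, with 3 each in the receptor genes INSR and IGF1R, 2 nearest to IRS1 and 1 in FOXO3, and 4 of the 9 overlapped SNF5. In the Wnt list 8 of 34 genes had 13 members, 8 with SNF5. AXIN2, ZNRF3 and RNF43, which are negative regulators of the pathway, and LGR5, an R-spondin receptor, had 2 each, and neither AXIN2 member overlapped SNF5. By position, the LGR5 member at chr12:71832344-71832469 lay in TSPAN8, and the AXIN2 member at chr17:63581545-63581681 lay outside AXIN2. In the TGF-beta list 6 of 33 genes had 8 members, 2 with SNF5, and SMAD3, a signal transducer, had 3. In the Hippo list 3 of 21 genes had 1 each: TEAD4 and the coactivator gene YAP1 with SNF5, and WWTR1 without. In the nuclear factor I family 3 of 4 genes had members, of which NFIA had 2. Among 28 SWI/SNF subunit genes 4 had members: ARID1B itself with 2, and DPF3, SS18L1 and SMARCA4 with 1 each. The list with the longest genes was the actin cytoskeleton and focal adhesion list, with a median length of 233 kb for genes with a member, and 17 of its 48 genes had 34 members, 16 with SNF5. LPP had 4, ITGB5 and ACTN4 had 3 each, and all 3 ITGB5 members overlapped SNF5.

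HNF4 letters had the highest ratio of midpoint to flank among the 10 motifs in members, as values without a test. The share of 200 bp windows that held a motif was compared with the windows 2000 bp to either side. HNF4 letters were found in 5.12% of member windows (119 of 2326, 95% Wilson interval 4.29 to 6.09) and in 1.57% of flanking windows, a ratio of 3.26. That ratio was not particular to members, being 3.27 in distal peaks of ARID1B alone, 2.77 in ARID1A intron peaks alone, 1.96 in ARID2 intron peaks alone, 3.14 over all ARID1B peaks and 8.33 in shared intron peaks. AP-1 letters (TGANTCA) were found in 8.68% and 5.42% (ratio 1.60), FOXA letters in 9.03% and 7.01% (ratio 1.29), C/EBP letters in 12.3% and 9.61% (ratio 1.28), and TEAD letters in 12.8% and 10.7% (ratio 1.20). HNF1 letters were in 2.58% and 2.09%. The letters TTGGCA for NFI were in 10.6% and 8.92%. The letters AGGGGGC for CTCF (2.84% and 2.86%) and GGGCGGG for SP and KLF factors (1.89% and 1.93%) were no more frequent at the midpoint than beside it, and CCGGAAG for ETS factors was in 1.07% and 0.795%. Over the windows of all 8728 ARID1B peaks, promoters included, the shares were 4.38% for HNF4, 6.70% for AP-1, 6.92% for FOXA, 10.2% for C/EBP, 11.1% for TEAD, 1.72% for HNF1, 9.07% for NFI, 6.85% for CTCF, 11.4% for SP/KLF and 3.45% for ETS.

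Against shared intron peaks, 4 of the 10 motifs differed. FOXA letters were in 9.03% of members and in 83 of 637 shared intron peaks, a difference of -4.00 points (95% interval -7.04 to -1.31, adjusted p = 0.0115, Fisher exact test with adjustment over 10 motifs). HNF4 letters were in 5.12% and 7.85% (adjusted p = 0.0296, Fisher exact test). SP/KLF letters were in 1.89% and 6.59% (adjusted p = 1.17e-07), and CTCF letters in 2.84% and 5.81% (adjusted p = 0.00288, Fisher exact tests). The median GC content was 45.5% in members and 49.5% in shared intron peaks. Within strata of GC content the CTCF difference was -1.66 points (adjusted p = 0.135, Mantel-Haenszel chi-square test), the SP/KLF difference was -2.96 points against -4.70 without strata, and FOXA, HNF4 and SP/KLF stayed past the threshold. AP-1, TEAD, C/EBP, NFI, HNF1 and ETS did not pass (adjusted p from 0.152 to 0.887). The intervals of their differences reached as low as -5.65 points for NFI, so differences of a few points could not be seen. Counted over the whole deposited peak in place of a fixed window, all 10 motifs were less frequent in members, which were the narrower peaks.

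**Figure D3:**
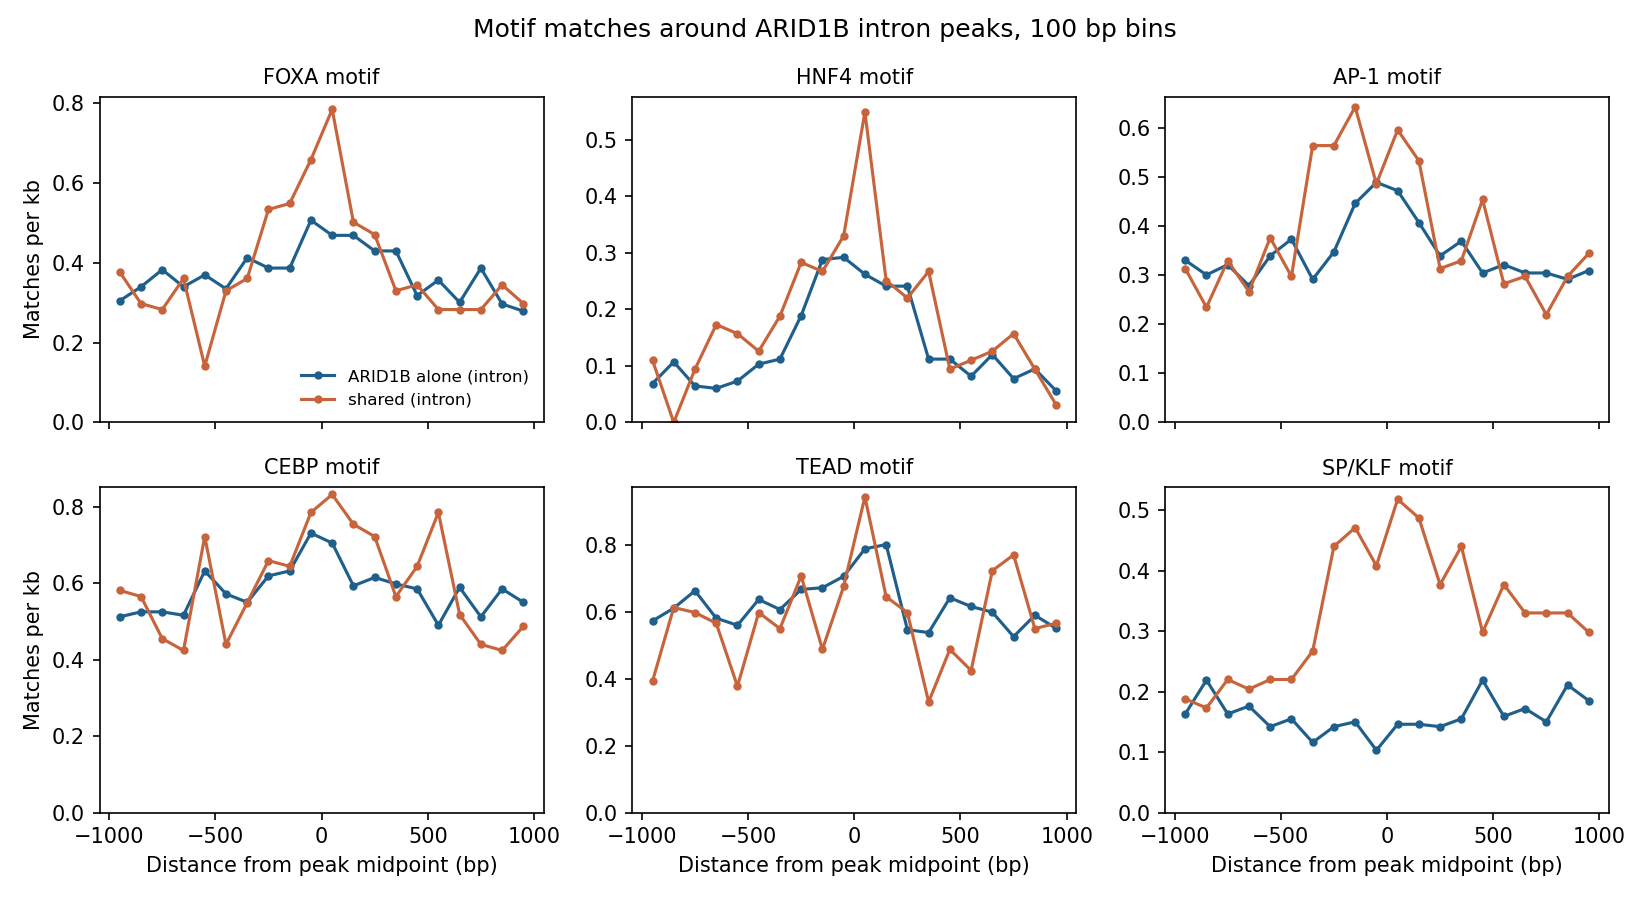
Motif matches per kb (y axis) in 100 bp bins by distance from the peak midpoint in bp (x axis), for ARID1B intron peaks alone (n = 2326) and shared (n = 637). In peaks alone, HNF4 matches in bins 550 bp or more from the midpoint lie between 0.0559 per kb (+950 bp) and 0.120 per kb (+650 bp). They reach 0.292 per kb at -50 bp and 0.262 per kb at +50 bp. In shared peaks HNF4 matches reach 0.549 per kb at +50 bp. SP/KLF matches show no rise in peaks alone.

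Members with a motif overlapped SNF5 more often than members without it for each of the 10 motifs searched, liver factors or not, as a description with no test. The share was 56.2% of 210 members with FOXA letters and 42.7% of the others. It was 55.7% of 287 with C/EBP letters against 42.2%, and 54.0% of 202 with AP-1 letters against 42.9%. It was 51.9% of 297 with TEAD letters against 42.7%, and 50.4% of 119 with HNF4 letters against 43.5%. The share was 60% of 25 with ETS letters against 43.7%, 55% of 60 with HNF1 letters against 43.6%, and 50% of 44 with SP/KLF letters against 43.8%. It was 49.4% of 247 with NFI letters against 43.2%, and 48.5% of 66 with CTCF letters against 43.8%. Counting how many of FOXA, HNF4, HNF1 and C/EBP a member held, SNF5 overlapped 40.6% of 1734 members with none, 51.8% of 512 with 1 kind and 65% of 80 with at least 2 kinds. The 402 members of 52 bp held HNF4 letters in 2.49% of windows and FOXA letters in 6.72%, against 1.37% and 6.22% of their flanks (ratios 1.82 and 1.08).

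The deposited chromatin state could be read for members on chromosome 1 only. Outside that chromosome the column did not follow position: overlapping ARID1B and ARID1A peaks carried the same state in 39.3% of 2662 pairs, where the frequencies of the states alone give 30.2%, and ARID1B peaks of the promoter class carried a promoter state in 47.2% of cases against 34.2% of intron peaks. On chromosome 1 the same state was found in 86.2% of 218 pairs. Of the 207 members there, 110 were in a strong enhancer state (53.1%, 95% Wilson interval 46.3 to 59.8), 28 in a weak enhancer state, 33 in a promoter state, 17 in a transcription state and 18 in heterochromatin. SNF5 overlapped 64 of the 110 members in strong enhancers (58.2%), 2 of 28 in weak enhancers and 1 of 18 in heterochromatin. An enhancer state of either kind was found for 66.7% of members, 57.3% of 89 ARID1A intron peaks alone (adjusted p = 0.294, Fisher exact test) and 42.3% of 137 ARID2 intron peaks alone (adjusted p = 5.16e-05). Shared intron peaks (77.8% of 36) and distal peaks of ARID1B alone (64.2% of 137) did not differ from members past the threshold (adjusted p = 0.326 and 0.645, Fisher exact tests). The chromosome was chosen after the data were seen. Over all chromosomes the column gave an enhancer state to 53.5% of members and 47.9% of all ARID1B peaks, and nothing was read from those values.

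**Figure D4:**
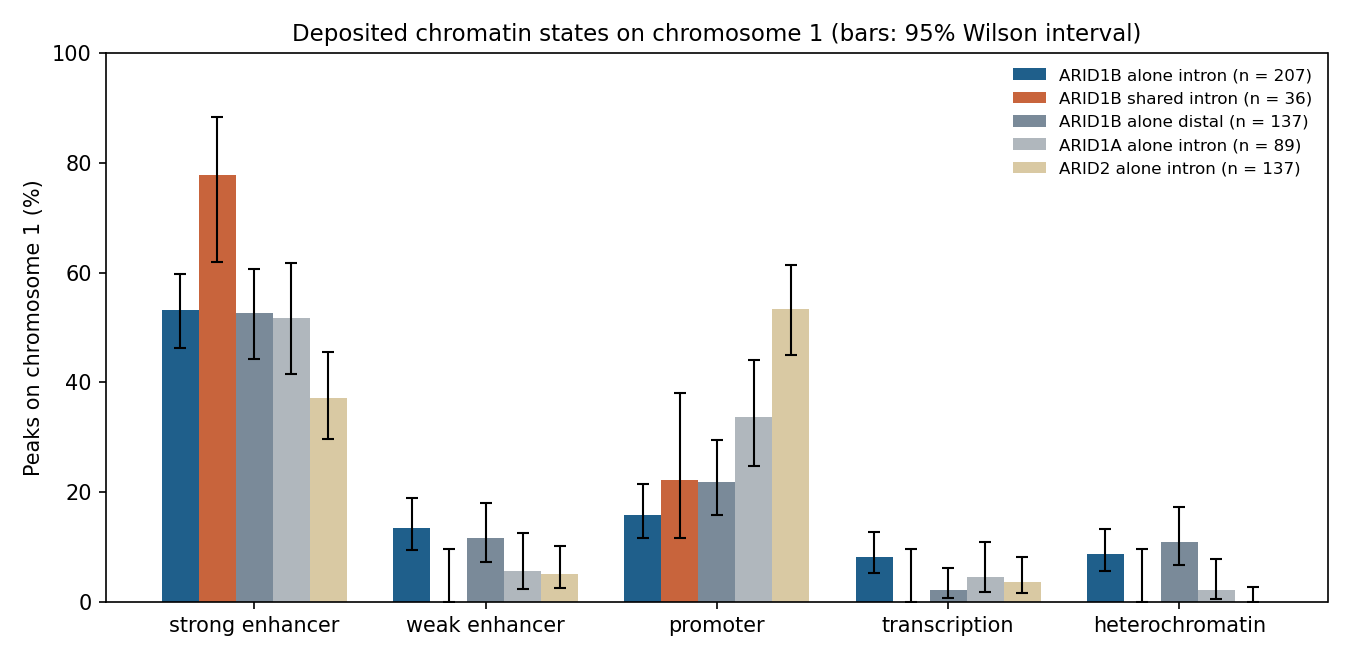
Share of chromosome 1 peaks (y axis, %) in each deposited chromatin state (x axis) for the 5 peak classes, with 95% Wilson intervals. Strong enhancer is the most frequent state of the 207 ARID1B intron peaks alone (53.1%), and the promoter state is most frequent in intron peaks of ARID2 alone (53.3%).

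Members were found on all chromosomes with intronic ARID1B peaks. Chromosome 2 held most, with 309 (13.3% of members, against 13.1% of all ARID1B peaks), followed by chromosome 1 with 207 (8.90% against 8.31%) and chromosome 16 with 157 (6.75% against 7.42%), so members followed the spread of the whole list there. The shares lay further apart on chromosomes 6 (6.58% against 9.10%), 17 (6.23% against 7.99%), 19 (2.92% against 4.45%) and 3 (5.93% against 4.65%). Among the 21 chromosomes with at least 10 members and a shared intron peak, members made up from 61.0% of the intronic ARID1B peaks (chromosome 20) to 95.5% (chromosome 4). The SNF5 share ran from 32.1% of 56 members on chromosome 15 to 62.7% of 75 on chromosome 20.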

How the data were processed

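HepG2 chromatin was analysed by ChIP-seq in 9 libraries, grouped by the antibody named in their titles: 2 each for ARID1A, ARID1B, ARID2 and SNF5, and 1 input, which was not used here. Per the study's methods, the authors mapped reads to hg19 (Bowtie2), dropped duplicates, merged both replicates, called broad peaks with MACS2, joined neighbouring peaks and removed blacklisted regions. The deposited files are 1 peak list per subunit. They give positions and distances in bp and, for the ARID lists, a feature class, a nearest gene (Gencode) and a chromatin state. The SNF5 list carries the authors' peak score, a whole number of the peak caller. No read counts were used, so depth is unknown, and merged calls allow no replicate error. Peak width depends on depth and on the joining step, and wide peaks overlap others more easily.

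The members, gene lists and motifs were chosen with earlier results of these data known. The deposited single or multiple label was not used. Overlap meant at least 1 shared bp, from coordinates read as counted from 0 and printed from 1. Sequences came from GRCh37, the assembly of hg19, and genes and canonical transcripts from Gencode v44 lifted to it. The host gene is the longest protein-coding gene that holds a peak's midpoint, or the longest gene of any type where none was protein-coding. The test of shares was Fisher's exact test, two-sided and adjusted by Benjamini-Hochberg over 4 comparisons or 10 motifs with a threshold of 0.05. Stratified alternatives used Mantel-Haenszel tests over 5 strata of width, GC content or gap, or with each chromosome as a stratum. Shares carry Wilson 95% intervals and differences Newcombe intervals. The genes named were the 12 nearest genes with most members, up to 4 genes per list by number then width of members, and the nearest genes of the 5 members with the highest SNF5 score and of the 5 widest. Leading host genes were added after values were seen, and host genes are given in place of unnamed nearest transcripts. Printed sequences were to be in an enhancer state as well, and this condition was dropped because the state column did not follow position. No sequence from chromosome 8 was printed, and some genes and 1 sequence that these rules select are not reported here. Analyses used Python 3.11.15, pandas 2.3.3, SciPy 1.17.1 and pysam 0.24.0, and were tested on simulated data.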

Additional observations from a re-analysis of the deposited data

How the results depend on the processing

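Leaving out the enhancer state, 67 of 97 alternatives to 15 results kept direction and side of the threshold and 30 did not. The SNF5 share of members stayed below that of shared intron peaks in all (-54.7 to -8.92 points), as did the FOXA, HNF4 and SP/KLF shares, the last at -2.96 points within GC strata. For SNF5 overlap (percentage points, members minus the other class), distal ARID1B peaks lost the call with a reciprocal overlap of 50% (0.632) and with peaks of at least 100 bp (3.69). Against ARID1A intron peaks the call was lost with midpoints at most 500 bp apart (-0.552), on autosomes (-3.76), with peaks of at least 100 bp (-0.0601), with introns by Gencode (-2.98), with 1 peak per 10 kb (-3.95) and within width strata (-3.51). The direction turned with a reciprocal overlap of 50% (0.659), with no other ARID within 1000 bp (0.719) and, chosen after seeing the data, within gap strata (4.39). Against ARID2 intron peaks a gap of at most 1000 bp gave a call with members lower (-10.9). The direction turned without a call on autosomes (0.0645), with peaks of at least 100 bp (3.29) and within width strata (0.452). It turned and passed the threshold with a reciprocal overlap (1.69), midpoints (4.51), no other ARID within 1000 bp (4.08) and gap strata (5.88), so calls against ARID2 went both ways. The reciprocal rule was met by 3.96% of members and by 2.27% to 3.32% of the other single-ARID classes, so its differences rest on few peaks. The enhancer state rests on a column that could be read on chromosome 1 only, so nothing is read from its values over all chromosomes, which crossed the threshold with strong states only for shared intron peaks (-5.69) and distal peaks (3.23). On chromosome 1, chosen after seeing the data, the difference from ARID1A intron peaks was 9.36. With the deposited peak bounds, calls arose for AP-1 (-7.93), TEAD (-6.45), C/EBP (-9.79), NFI (-8.92) and ETS (-1.34), and HNF1 turned (-3.70). HNF1 also turned with a 300 bp window (-0.169) and within GC strata (-0.166), where ETS turned (0.0269) and CTCF lost its call (-1.66). Peaks of at least 100 bp left 1523 members. Apart from the peak bounds, which change the length searched, the cause was not tested. No paired analysis was possible because both replicates were merged before peaks were called, and leaving out a replicate was not run for the same reason.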
